A study of Mus musculus with 7 samples.

Results

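A set of 10 transcription factors known for driving oligodendrocyte differentiation was followed in mouse oligodendroglia that overexpressed Sox9, an HMG-box transcription factor of glial progenitors, and in wild-type cells. The set was chosen by name, as Myrf, Zfp488, Nkx2-2, Tcf7l2, Zeb2, Nkx6-1, Nkx6-2, Zfp536, Myt1 and St18, and makes up 10 of the 49315 genes in the count tables. Bulk RNA sequencing covered 4 libraries of the genotype Sox9-tg and 3 control libraries of the genotype Sox9-wt, all from brain. The series' title asks which genes Sox9 targets in NG2 glia shortly after birth. The promoter that drives the Sox9 transgene, the age in days, the sex, and any sorting or culture of the cells are not given in the sources at hand.

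Oligodendrocytes form from NG2 glia, dividing progenitors that leave the cell cycle, pass through a short committed stage and then make myelin. A small circuit of transcription factors runs these steps: the OLIG and SOX proteins set the lineage, NKX2-2, ZFP488, TCF7L2 and ZEB2 act on the progenitor state or on the signals that hold it, and MYRF switches on the genes of myelin. The circuit also holds zinc finger proteins of the NZF family, MYT1 and ST18, and the homeodomain proteins NKX6-1 and NKX6-2, which pattern the ventral neural tube.

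Library totals lay between 15768472 and 20815459 counts in Sox9-tg and between 17275678 and 30507326 counts in control. Sox9 averaged 2915 ± 588 CPM (counts scaled to library size) in Sox9-tg and 295 ± 57.0 CPM in control (SD, n = 4 and 3); its lowest Sox9-tg library held 2207 CPM and its highest control library 353 CPM. Counts per gene cannot separate the transgene from the endogenous gene. The summed level of 12 NG2 glia markers was 11030 to 15150 CPM in Sox9-tg and 4671 to 5671 CPM in control, and 11 of the 12 were higher in Sox9-tg. This sum included Gpr17, which is also made by committed progenitors, at 1500 to 3953 CPM in Sox9-tg and 120.3 to 244.5 CPM in control. Markers of other cells were also present: 10 inhibitory neuron markers summed to 642 to 2378 CPM in Sox9-tg and 1927 to 3413 CPM in control, with 1 of the 10 lower in Sox9-tg. The 10 astrocyte markers summed to 1694 to 2474 CPM in Sox9-tg and 2484 to 4519 CPM in control, with 3 of the 10 lower. No marker of these lists was at 0 in all libraries. In bulk RNA, fewer cells of a type and less RNA per cell cannot be told apart. The labels call the libraries biological replicates without tying them to animals or cultures; a p-value here reflects only how these samples differ among themselves, in part perhaps technically. Sox9-tg libraries 3 and 4 were far more alike (chi-square per degree of freedom 4.93 over genes) than any other pair within a group (39.4 to 78.4), though further apart than counting error alone; nothing in the labels says how they are related.

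Of the 10 factors, Myrf, Zfp488, Nkx2-2 and Zeb2 were higher in Sox9-tg cells, St18 was lower, and Tcf7l2, Nkx6-1, Nkx6-2, Zfp536 and Myt1 did not pass the test. A gene is called higher or lower here at an adjusted p under 0.05, where p comes from the edgeR quasi-likelihood test and is adjusted by the Benjamini-Hochberg method over 16616 tested genes. The share of all tested genes called was 7.69% higher and 5.86% lower. The 5 called factors were also those whose Sox9-tg and control libraries did not overlap in CPM, 4 of them higher and 1 lower; over all tested genes, 13.1% lay without overlap higher in Sox9-tg and 11.5% lower. The median log2 fold change was 0.66 over the 10 factors and -0.01 over all tested genes. The count of higher factors was 2 without control library 1 or without control library 3, in place of 4. With Sox9-tg libraries 3 and 4 summed into 1, an alternative added after seeing the data, Myrf, Zfp488, Nkx2-2 and St18 kept their calls and Zeb2 did not (log2 fold change 0.59, edgeR adjusted p = 0.0896).

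**Figure D1:**
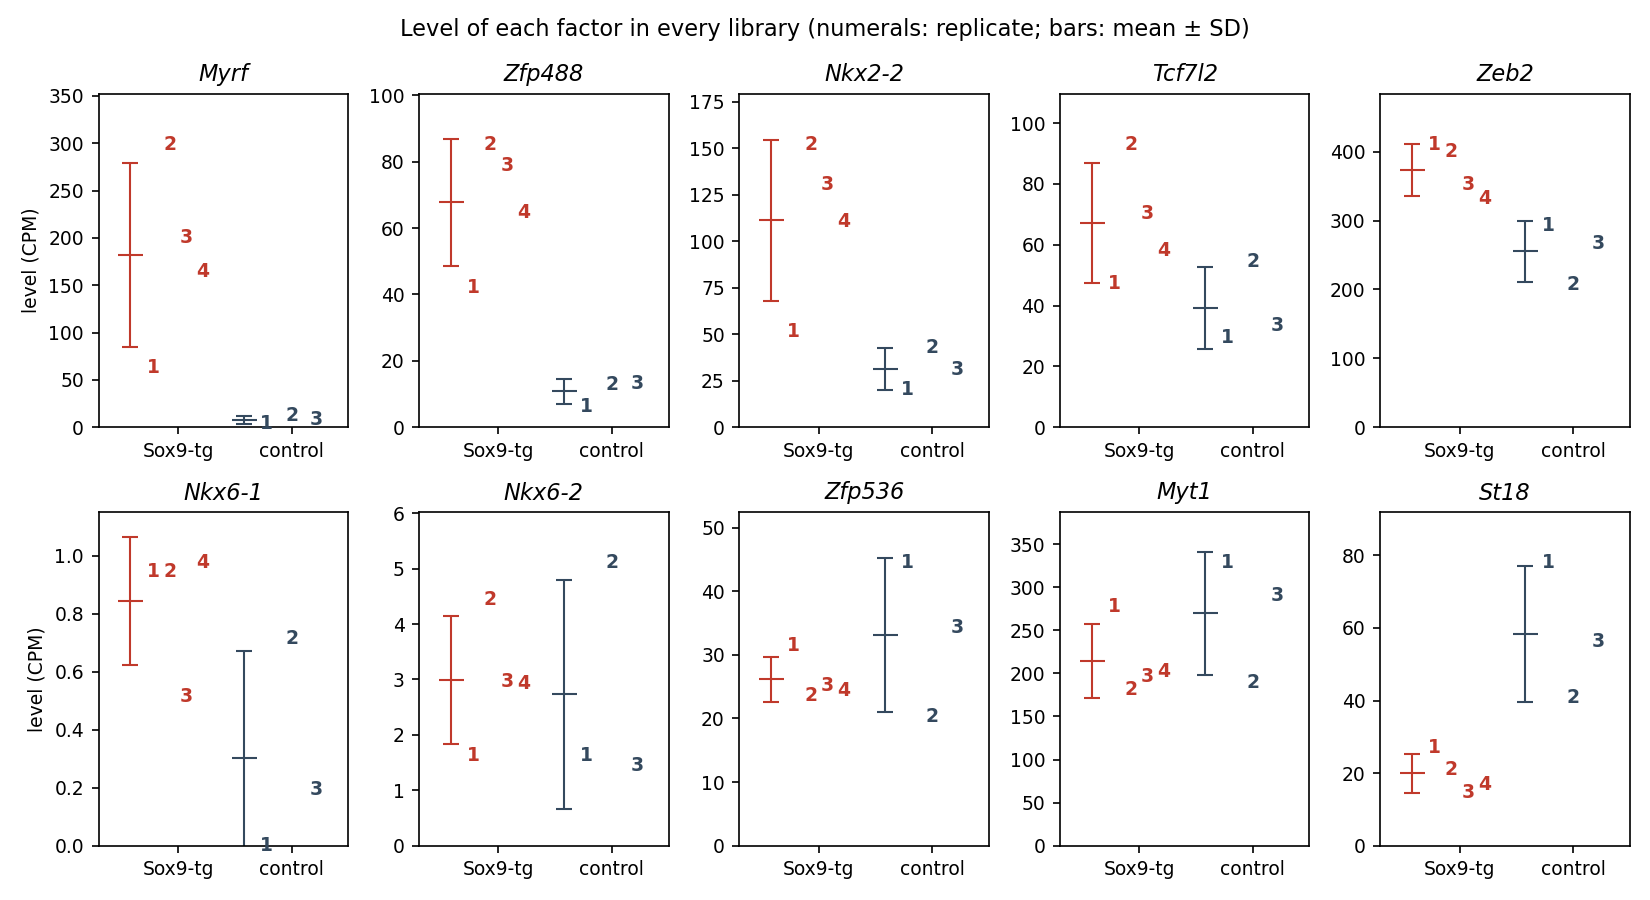
Level in CPM (linear axis from 0, each panel with its own scale) of the 10 factors, with Sox9-tg libraries at the left and control libraries at the right of each panel. Numerals are the replicate numbers, and bars give mean ± SD (n = 4 Sox9-tg, 3 control). Every Sox9-tg library lies above every control library for Myrf, Zfp488, Nkx2-2 and Zeb2, and below every one for St18.

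Promoter sequence is shown for Zfp488, Nkx2-2 and Zeb2, the called factors with an entry in the RefSeq table. It is also shown for Tcf7l2, which was not called but passed in 4 of 14 alternative settings of the test. In each sequence the motifs of the circuit's own proteins are marked. The windows run from 250 bases before to 50 bases after a RefSeq start (build GRCm38.p6), 5′ to 3′ on the gene's strand, and 8 of the 10 factors matched the table, with 14 windows in all; Myrf and St18 had no entry. Capitals mark every match, on either strand, of these motifs: SOX AACAAT and ACAAAG, MYRF CTGGCAC and CTGGTAC, TCF/LEF CTTTGAT, the E-boxes CAGCTG and CACCTG, NKX2 CACTTNA, and NZF AAGTTT.
Zfp488, chr14:33978715-33979014, minus strand: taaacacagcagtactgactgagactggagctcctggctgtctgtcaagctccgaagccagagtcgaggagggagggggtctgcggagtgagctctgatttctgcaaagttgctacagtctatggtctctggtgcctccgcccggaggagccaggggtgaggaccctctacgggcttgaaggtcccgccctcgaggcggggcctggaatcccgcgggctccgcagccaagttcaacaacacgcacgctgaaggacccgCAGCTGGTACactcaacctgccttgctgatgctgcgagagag
Nkx2-2, chr2:147186353-147186652, minus strand: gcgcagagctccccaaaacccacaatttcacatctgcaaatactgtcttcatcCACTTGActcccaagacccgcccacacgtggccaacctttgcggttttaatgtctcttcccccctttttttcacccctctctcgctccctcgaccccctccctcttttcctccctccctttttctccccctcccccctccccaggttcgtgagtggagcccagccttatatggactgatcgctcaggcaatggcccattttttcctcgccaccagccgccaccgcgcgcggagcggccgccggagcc
Tcf7l2, first of 2 windows, chr19:55741560-55741859, plus strand: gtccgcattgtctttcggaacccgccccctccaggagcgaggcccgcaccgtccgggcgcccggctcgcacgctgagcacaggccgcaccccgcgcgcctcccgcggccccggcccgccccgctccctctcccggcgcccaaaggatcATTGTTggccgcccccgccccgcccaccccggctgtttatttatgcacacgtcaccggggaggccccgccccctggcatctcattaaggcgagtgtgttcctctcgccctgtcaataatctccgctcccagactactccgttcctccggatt
Zeb2, first of 4 windows, chr2:45117393-45117692, minus strand: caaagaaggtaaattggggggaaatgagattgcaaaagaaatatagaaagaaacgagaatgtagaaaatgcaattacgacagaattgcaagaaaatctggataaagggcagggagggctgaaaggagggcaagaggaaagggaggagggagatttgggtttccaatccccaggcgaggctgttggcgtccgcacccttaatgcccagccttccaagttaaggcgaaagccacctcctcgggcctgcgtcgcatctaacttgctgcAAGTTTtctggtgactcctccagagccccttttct

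The Zfp488 window held an E-box CAGCTG 8 bases after the start that overlapped a MYRF match CTGGTAC beginning at 11. Over all 32851 RefSeq windows of this length, 16.3% held CAGCTG and 2.24% held CTGGTAC. A MYRF match of either form lay in 7.1% of all windows. The Nkx2-2 window held 1 match, CACTTNA, 197 bases before the start; 11.5% of all windows held it. The first Tcf7l2 window held AACAAT on the opposite strand 102 bases before the start, which 10.7% of all windows held, and the first Zeb2 window held AAGTTT 15 bases after the start, which 14.4% held. A SOX match of either form lay in 27.0% of all windows. Among the further windows of these 4 factors it lay in the other Tcf7l2 window and in 1 Zeb2 window, and the windows of Zfp488 and Nkx2-2 held none. Matches describe letters in these windows and show no binding.

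MYRF is a membrane-bound factor that cleaves itself, and its free part enters the nucleus and activates myelin genes. Myrf (ENSMUSG00000036098, chr19:10208272-10240748, minus strand) had 63.2, 299, 201 and 164 CPM in Sox9-tg libraries 1 to 4, against 3.66, 12.3 and 7.92 CPM in control libraries 1 to 3. Every Sox9-tg library lay above every control library, and within the groups Sox9-tg library 1 and control library 1 were lowest and library 2 highest in both. The level was 22.4-fold higher in Sox9-tg (log2 fold change 4.49 ± 0.60 SE, edgeR adjusted p = 0.00203). Per kilobase of exon, Myrf stood at percentile 84.7 of genes in Sox9-tg and at percentile 21 in control. The change passed the test in all 14 alternative settings, between 4.15 and 4.94 on the log2 scale.

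ZFP488 is a zinc finger co-repressor that binds OLIG2 and promotes differentiation. Zfp488 (ENSMUSG00000044519, chr14:33967070-33978764, minus strand) had 42.2, 85.2, 79.0 and 64.7 CPM in Sox9-tg libraries, against 6.28, 12.7 and 13.3 CPM in control libraries. The groups did not overlap, and library 1 was lowest in each. The level was 6.23-fold higher in Sox9-tg (log2 fold change 2.64 ± 0.32 SE, edgeR adjusted p = 0.00142), and it passed in all 14 alternatives.

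NKX2-2 is a homeodomain repressor that marks ventral progenitors and sets the timing of differentiation, in part by repressing Pdgfra. Nkx2-2 (ENSMUSG00000027434, chr2:147177546-147194243, minus strand) had 51.3, 152, 130.3 and 111 CPM in Sox9-tg libraries, against 20.1, 42.8 and 31.0 CPM in control libraries. The groups did not overlap, and the nearest pair were Sox9-tg library 1 and control library 2. The level was 3.54-fold higher in Sox9-tg (log2 fold change 1.82 ± 0.38 SE, edgeR adjusted p = 0.0149). The adjusted p was 0.0531 without control library 1 and 0.0681 without control library 3. Pdgfra was also higher in Sox9-tg, at 1432 ± 101 CPM against 433 ± 22.6 CPM in control (edgeR adjusted p = 0.000236). Any link between Pdgfra and Nkx2-2 was not tested. The antisense gene Nkx2-2os overlaps 278 exonic bases of Nkx2-2, but it held at most 33 counts in any library, where Nkx2-2 held at least 346. The sources used here do not say whether counting used strand.

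TCF7L2 is the HMG-box effector of Wnt signalling that is expressed briefly in newly formed oligodendrocytes. Tcf7l2 (ENSMUSG00000024985, chr19:55741820-55933654, plus strand) had 47.3, 93.0, 70.3 and 58.0 CPM in Sox9-tg libraries, against 29.4, 54.4 and 33.5 CPM in control libraries. Control library 2 lay above Sox9-tg library 1. The log2 fold change was 0.78 ± 0.27 SE and did not pass (edgeR adjusted p = 0.103). It passed without control library 2 (log2 fold change 1.10, edgeR adjusted p = 0.0293) and without Sox9-tg library 1 (0.91, adjusted p = 0.0487), and in DESeq2 (0.77, adjusted p = 0.0339).

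ZEB2 is a zinc finger homeodomain repressor that binds SMAD proteins and counters BMP signalling. Zeb2 (ENSMUSG00000026872, chr2:44983632-45117395, minus strand) had 411, 401, 352 and 332.5 CPM in Sox9-tg libraries, against 293, 207 and 267 CPM in control libraries. The groups did not overlap, and Sox9-tg library 1 was the highest of its group, unlike for Myrf, Zfp488 and Nkx2-2. The level was 1.46-fold higher in Sox9-tg (log2 fold change 0.55 ± 0.16 SE, edgeR adjusted p = 0.0497), just past the threshold. The change passed in 4 of 14 alternatives and failed without any 1 of the 7 libraries, where its adjusted p lay between 0.0563 and 0.142. The antisense gene Zeb2os shares 653 exonic bases with Zeb2 and held 88 to 132 counts in Sox9-tg and 162 to 258 counts in control, where Zeb2 held at least 5044. Scaled to library size, Zeb2os did not pass (log2 fold change -0.46, edgeR adjusted p = 0.232).

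NKX6-1 and NKX6-2 are homeodomain repressors that pattern the ventral neural tube, and NKX6-2 is also made by myelinating oligodendrocytes. Nkx6-1 (ENSMUSG00000035187, chr5:101658139-101664996, minus strand) had 18, 19, 8 and 20 counts in Sox9-tg libraries, against 0, 22 and 6 counts in control libraries. Control library 2 held more counts than any Sox9-tg library, but its 0.715 CPM lay within the Sox9-tg range of 0.515 to 0.976 CPM. The control library at 0 allows up to 3 counts, or 0.174 CPM. The log2 fold change of 1.38 ± 0.79 SE did not pass (edgeR adjusted p = 0.310); it was 0.91 without control library 1 and 2.85 without control library 2 (edgeR adjusted p = 0.0701). Nkx6-2 (ENSMUSG00000041309, chr7:139579376-139582797, minus strand) had 1.63, 4.44, 2.96 and 2.93 CPM in Sox9-tg libraries, against 1.63, 5.10 and 1.46 CPM in control libraries. The groups overlap fully and the log2 fold change was 0.12 ± 0.51 SE (edgeR adjusted p = 0.911). Its sign turned without control library 1 (-0.12), control library 3 (-0.18) or Sox9-tg library 2 (-0.12).
Library 2 had the highest Nkx6-2 level in both groups and also the highest summed level of 9 microglia markers, 252 CPM in Sox9-tg and 617 CPM in control, where the other libraries held 37.0 to 82.4 CPM in Sox9-tg and 80.5 to 176 CPM in control. In edgeR 0 of the 9 tested microglia markers were called in either direction, as in DESeq2 and limma-voom, and at an unadjusted p under 0.05 2 were lower and 0 higher. Endothelial and mural markers summed to 24.7 to 65.1 CPM in Sox9-tg and 28.6 to 216 CPM in control, also highest in library 2 of each group. The part of these cells in the Nkx6-2 values was not tested. The gene Inpp5a, on the opposite strand, shares 246 exonic bases with Nkx6-2 and held 366 to 926 counts, more than Nkx6-2 in each library.

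ZFP536 is a zinc finger protein reported to repress retinoic acid induced neuronal differentiation. Zfp536 (ENSMUSG00000043456, chr7:37472135-37773641, minus strand) had 31.4, 23.6, 25.3 and 24.4 CPM in Sox9-tg libraries, against 44.5, 20.4 and 34.4 CPM in control libraries. Control library 2 lay below every Sox9-tg library, control libraries 1 and 3 above every one, and the log2 fold change of -0.33 ± 0.24 SE did not pass (edgeR adjusted p = 0.416). Within each group its order was also that of the summed inhibitory neuron markers, highest in library 1 and lowest in library 2; the part of that signal was not tested.

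MYT1 and ST18 belong to the NZF family of zinc finger proteins, and MYT1 is made by oligodendrocyte progenitors. Myt1 (ENSMUSG00000010505, chr2:181763332-181827797, plus strand) had 277.5, 181, 196 and 202 CPM in Sox9-tg libraries, against 328, 189.6 and 291 CPM in control libraries. Sox9-tg libraries 1, 3 and 4 lay within the control range, and the log2 fold change was -0.33 ± 0.22 SE (edgeR adjusted p = 0.371).
St18 (ENSMUSG00000033740, chr1:6487231-6860940, plus strand) had 27.1, 21.0, 14.8 and 16.9 CPM in Sox9-tg libraries, against 77.9, 40.8 and 56.3 CPM in control libraries. The groups did not overlap. St18 fell 2.92-fold in Sox9-tg (log2 fold change -1.54 ± 0.26 SE, edgeR adjusted p = 0.00555) and passed in all 14 alternatives, between -1.75 and -1.27. In the same libraries, 8 of 10 excitatory neuron markers were lower in Sox9-tg, summing to 237.5 to 329 CPM in Sox9-tg and 518 to 717 CPM in control; their part in St18 was not tested.

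**Figure D2:**
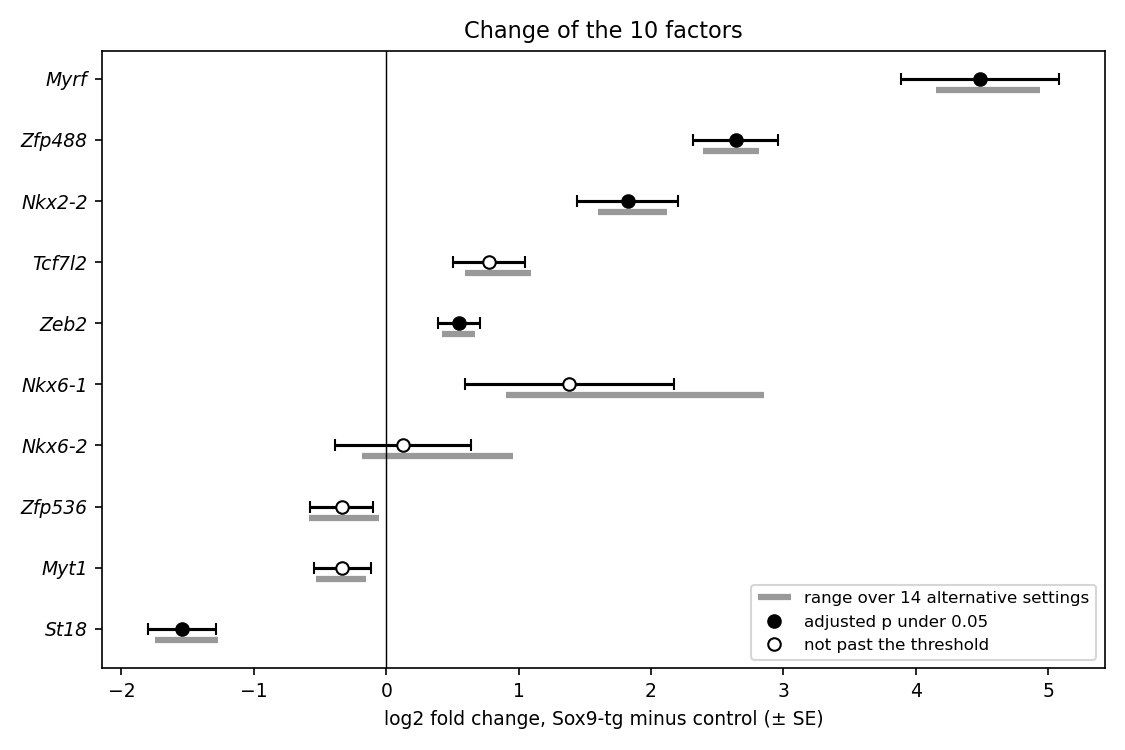
Log2 fold change (Sox9-tg minus control) of the 10 factors with its standard error, and with the range over the alternative settings. Myrf at 4.49 lies furthest above 0 and St18 at -1.54 furthest below, and the range of Nkx6-2 crosses 0, from -0.18 to 0.96.

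Levels per kilobase set the order of the factors within each group. The length was that of all exons of a gene merged over its annotated transcripts, 19942 bases for Zeb2. It can exceed the length of any single transcript, so the order between genes depends on this choice. In Sox9-tg, Nkx2-2 was highest at 38.6 ± 15.1 CPM per kilobase, followed by Myt1 at 29.8 ± 6.01, Myrf at 21.2 ± 11.4, Zeb2 at 18.8 ± 1.89 and Zfp488 at 15.8 ± 4.44 CPM per kilobase (SD, n = 4). Each of these neighbours overlapped the next in their libraries. Tcf7l2 followed at 7.65 ± 2.24, St18 at 3.09 ± 0.844, Zfp536 at 2.84 ± 0.386, Nkx6-2 at 1.57 ± 0.603 and Nkx6-1 at 0.270 ± 0.0704 CPM per kilobase. In control, Myt1 was highest at 37.5 ± 9.97, followed by Zeb2 at 12.8 ± 2.22, Nkx2-2 at 10.9 ± 3.94 and St18 at 9.03 ± 2.89, with Zfp488 at 2.5 ± 0.907 and Myrf at 0.931 ± 0.506 CPM per kilobase (SD, n = 3). Control libraries of Myt1 did not overlap those of Zeb2, whereas those of Zeb2, Nkx2-2 and St18 overlapped. The lineage factor Olig2 stood at 263 ± 45.8 in Sox9-tg and 134 ± 16.4 CPM per kilobase in control, above each of the 10 factors in both groups.

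**Figure D3:**
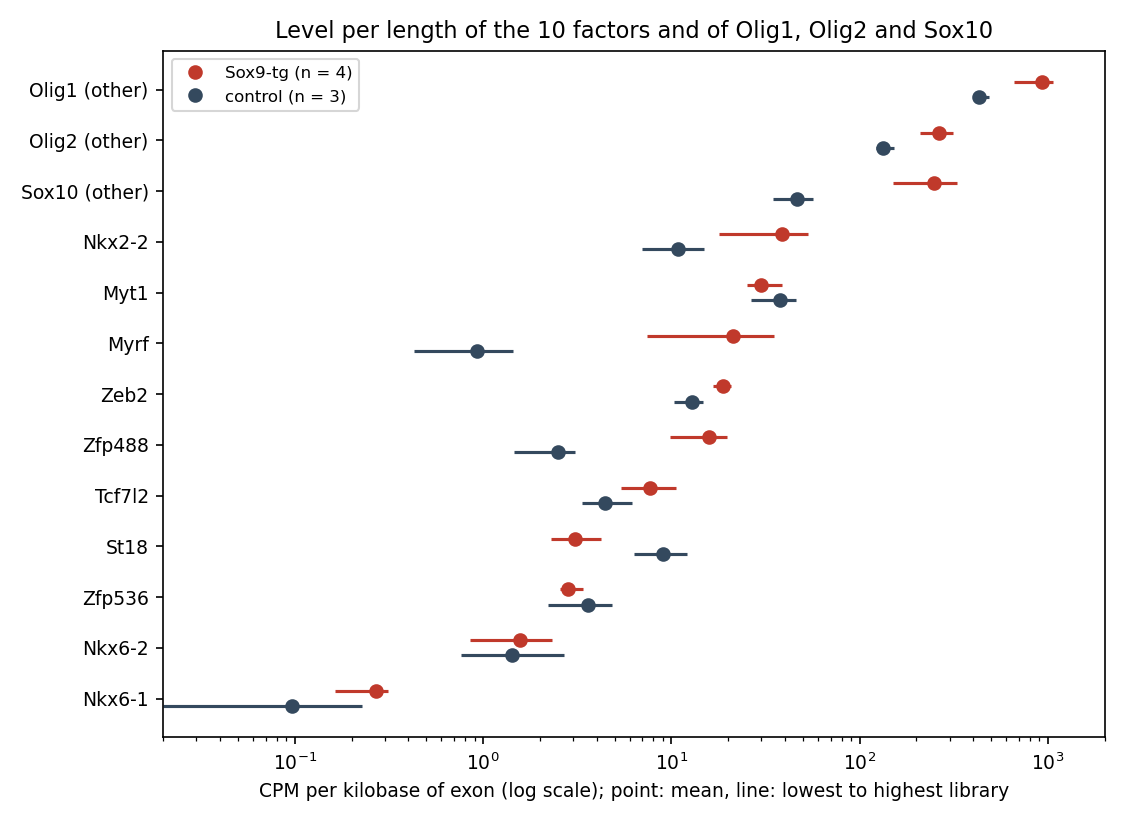
Mean level per kilobase of exon (log axis, CPM per kilobase) of the 10 factors, with Olig1, Olig2 and Sox10 for scale, in Sox9-tg and control libraries; lines run from the lowest to the highest library. On exon lengths merged over transcripts, the mean of Myrf lies above that of Zeb2 in Sox9-tg and below that of Nkx6-2 in control. The control line of Nkx6-1 includes a library at 0, drawn at the edge of the axis.

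Sox9-tg library 1 was lowest and library 2 highest for Myrf, Nkx2-2, Nkx6-2, Tcf7l2 and Zfp488, whereas Sox9-tg library 1 was highest for Zfp536, St18, Myt1 and Zeb2. In control, library 1 was highest and library 2 lowest for Zfp536, St18, Myt1 and Zeb2, and library 1 was lowest for Myrf, Nkx2-2, Nkx6-1, Tcf7l2 and Zfp488. Over all tested genes, 19.2% had Sox9-tg library 1 lowest and library 2 highest, and 33.0% had Sox9-tg library 1 highest. Control library 1 was highest and control library 2 lowest for 25.1% of all tested genes, and control library 1 was lowest for 38.6%.

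**Figure D4:**
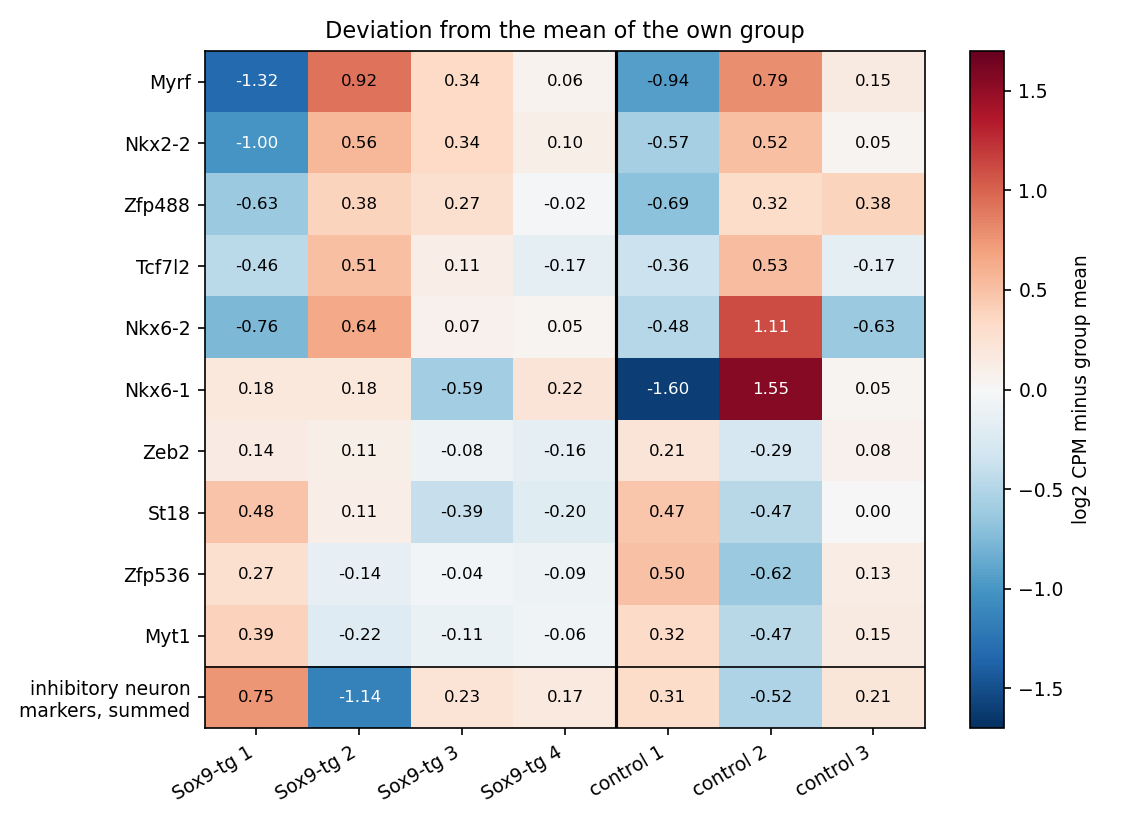
Deviation of each library from its group mean (log2 scale) for the 10 factors, with the summed inhibitory neuron markers in the bottom row; Sox9-tg libraries stand left of control libraries. Red cells lie above the group mean and blue cells below it, and for Myrf, Nkx2-2, Zfp488, Tcf7l2 and Nkx6-2 library 1 is below and library 2 above the mean in both groups.

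Genes of myelin reported as direct or dependent targets of MYRF mostly rose. Of 18 tested, 11 were higher and 0 lower (also 0 lower in DESeq2, in limma-voom and at an unadjusted p under 0.05), with a median log2 fold change of 2.80 against -0.01 over all tested genes; the list was drawn with earlier results of these data known, so its direction is no independent evidence. Gal3st1, an enzyme of sulfatide synthesis, averaged 114 ± 42.5 CPM in Sox9-tg and 8.63 ± 2.95 CPM in control (SD, n = 4 and 3; log2 fold change 3.70, edgeR adjusted p = 0.000719). Mbp, a main protein of compact myelin, averaged 1063 ± 665 CPM in Sox9-tg and 54.9 ± 18.8 CPM in control (log2 fold change 4.27, edgeR adjusted p = 0.00356). Of the other 7, Mog, a late myelin gene, averaged 3.56 ± 0.586 CPM in Sox9-tg and 4.77 ± 1.15 CPM in control and did not pass (edgeR adjusted p = 0.361). Mobp and Opalin held too few counts to be tested, and 10 markers of mature oligodendrocytes summed to 27.8 to 35.8 CPM in Sox9-tg and 42.8 to 46.5 CPM in control. A large part of this sum was Anln, the 1 called marker of that list, which was lower in Sox9-tg; without it the other 9 summed to 11.1 to 16.9 CPM in Sox9-tg and 9.76 to 15.4 CPM in control, which overlap. Of 10 markers of Schwann cells and neural crest, 8 were tested, 4 were higher and 1 lower, and the 10 summed to 259 to 1174 CPM in Sox9-tg and 103 to 135 CPM in control. Their part in these values was not tested. In all 11 higher genes Sox9-tg library 1 was lowest and library 2 highest, the order of Myrf; among all genes called higher, 43% had that order. Genes of committed and premyelinating cells were likewise higher in 14 of 16 tested and lower in 0, by edgeR, DESeq2, limma-voom or an unadjusted p under 0.05, with a median of 2.79. Gpr17, a receptor of committed progenitors, averaged 2889 ± 1054 CPM in Sox9-tg and 186 ± 62.4 CPM in control (log2 fold change 3.96, edgeR adjusted p = 0.000635).

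Other lineage factors did not move in a single direction. Of 32 tested, 7 were higher (Sox10, Sox6, Sox5, Olig1, Olig2, Myc and Zfp24) and 4 lower (Hes6, Rxrg, Id2 and Sox11), with a median of 0.06. Without control library 3, 3 were higher and 2 lower, and 2 were lower without Sox9-tg library 3 or 4. Sox10, which acts with OLIG2 and upstream of MYRF, averaged 758 ± 224 CPM in Sox9-tg and 141 ± 33.2 CPM in control (log2 fold change 2.43, edgeR adjusted p = 0.00122). Rxrg, a retinoid receptor of oligodendroglia, averaged 5.61 ± 1.02 CPM in Sox9-tg and 15.6 ± 2.95 CPM in control (log2 fold change -1.47, edgeR adjusted p = 0.00245).

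Of 18 Wnt readout genes and TCF7L2 co-factors, 1 was higher, 3 were lower and 14 did not pass, with a median of -0.11. Over all tested genes, 7.69% were higher and 5.86% lower. Rnf43, which removes Wnt receptors, was higher at 31.1 ± 5.65 CPM in Sox9-tg and 9.20 ± 4.10 CPM in control. The co-repressors Tle2 and Ctbp2 and the Wnt inhibitor Notum were lower. Ctbp2 and Notum passed in 7 of 14 alternatives each; 1 gene of the list was lower without control library 2 or 3 or Sox9-tg library 2, 3 or 4, and 3 were higher without Sox9-tg library 2. Of 17 genes of the ZEB2 axis of BMP signalling, 0 were higher in edgeR, DESeq2 or limma-voom (2 at an unadjusted p under 0.05) and 4 were lower in edgeR, Id1, Id2, Id3 and the receptor Bmpr1b, with a median of -0.15. Without Sox9-tg library 1, 3 genes of this list were higher; 1 was lower without control library 2 or 3 or Sox9-tg library 3, and 2 without Sox9-tg library 4. Id1 passed in 14 of 14 alternatives, Bmpr1b in 11, Id2 in 10 and Id3 in 8. The summed astrocyte markers were also lower in Sox9-tg, and the part of astrocytes in these 4 genes was not tested. Id1, a BMP-induced inhibitor of bHLH factors, averaged 17.1 ± 3.49 CPM in Sox9-tg and 45.3 ± 8.59 CPM in control (log2 fold change -1.41, edgeR adjusted p = 0.00223). Smad7, a BMP pathway inhibitor that ZEB2 is known to activate, averaged 27.7 ± 2.98 CPM in Sox9-tg and 21.8 ± 1.31 CPM in control, without overlap but not past the threshold (edgeR adjusted p = 0.109). The ventral neural tube list was drawn up around the NKX proteins and holds patterning factors and Hedgehog genes. Of its 13 tested genes, 2 were higher, Gsx1 and Olig2 (1 without control library 3), and 7 lower. These included Gli2, a Hedgehog effector, at 10.1 ± 0.580 CPM in Sox9-tg and 37.1 ± 1.09 CPM in control (edgeR adjusted p = 0.000118) and Pax6, a neural tube factor that NKX2-2 opposes, at 63.1 ± 8.63 CPM in Sox9-tg and 132 ± 12.7 CPM in control (edgeR adjusted p = 0.00159).

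**Figure D5:**
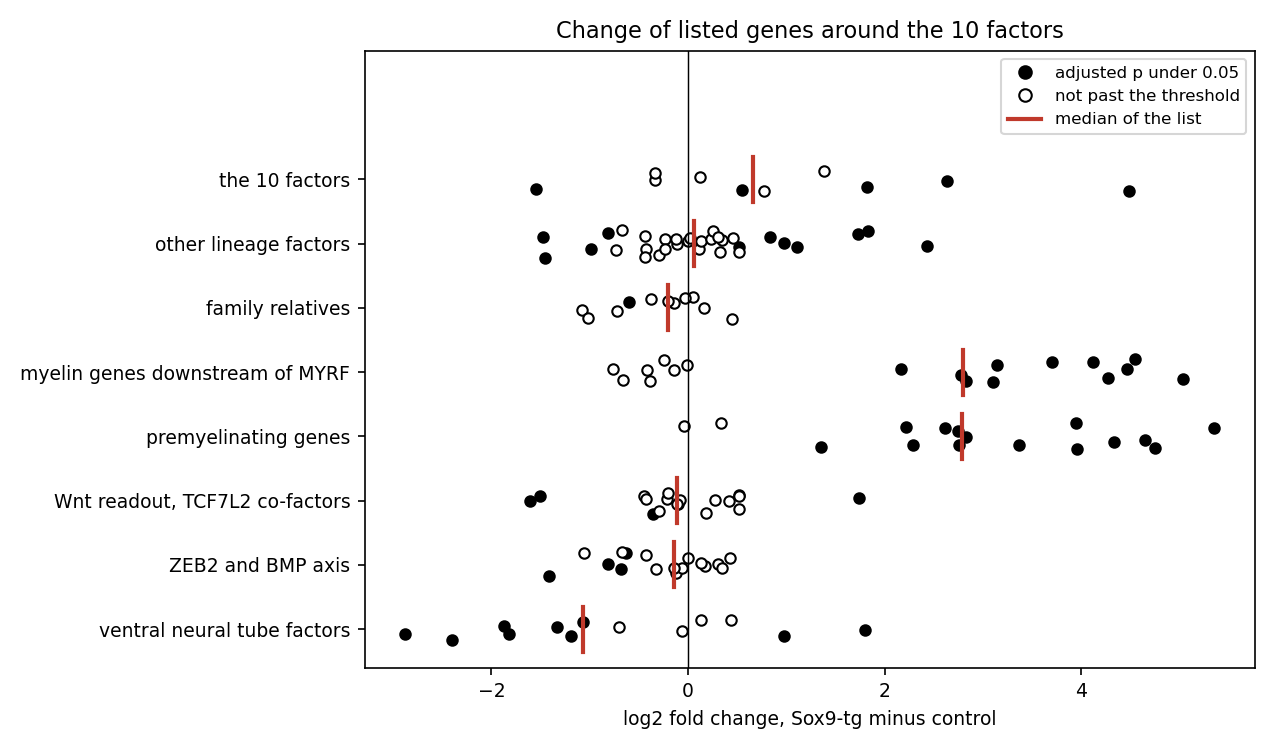
Log2 fold changes (Sox9-tg minus control) of the members of each list, with points for genes and a bar for the median of each list. Targets of MYRF and premyelinating genes lie mostly above 0, with medians of 2.80 and 2.79, and the ventral neural tube list lies mostly below 0, with a median of -1.07.

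Of 11 tested relatives or partners of the 10 factors, 0 were higher in edgeR, DESeq2, limma-voom or at an unadjusted p under 0.05. The 1 lower in edgeR was the ZEB2 paralog Zeb1, at 185 ± 29.5 CPM in Sox9-tg and 280.1 ± 29.3 CPM in control (log2 fold change -0.60, edgeR adjusted p = 0.0310). It passed in 9 of 14 alternatives. The level of Zeb2 relative to Zeb1 per kilobase was 0.949, 1.34, 1.06 and 0.899 in Sox9-tg libraries, against 0.493, 0.429 and 0.481 in control libraries. The groups did not overlap, and the mean log2 ratio was 1.17 higher in Sox9-tg (exact two-sided permutation test, p = 0.0571, the smallest 35 splits allow; Benjamini-Hochberg adjusted over 4 ratios 0.114). The level of Myrf relative to Sox10 was 0.0492, 0.136, 0.0715 and 0.0738 in Sox9-tg libraries, against 0.0124, 0.0256 and 0.0193 in control libraries, again without overlap (exact p = 0.0571, adjusted 0.114). The ratios Zfp488 to Sox10 and Nkx2-2 to Olig2 overlapped between groups, with log2 differences of 0.28 (exact p = 0.229, adjusted 0.229) and 0.82 (exact p = 0.171, adjusted 0.228). These 4 ratios were chosen after the values were seen.

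The genes whose levels followed each called factor most closely over the 7 libraries were picked by Pearson r of log2 CPM among 11246 genes. Both group differences and within-group order enter this r, which carries no test. Myrf was followed by Chadl (r = 0.9991), Fa2h (0.999) and Lims2 (0.9989). Nkx2-2 was followed by Crtap (0.9986), Fam3c (0.9968) and Cdk18 (0.996), and Zfp488 by Susd4, Neu4 and Fbp1 (each 0.997). St18 was followed by Hjurp (0.9907), Foxp1 (0.9906) and Csrnp3 (0.9891), all lower in Sox9-tg. Zeb2 was followed by Pcdhb8 (0.9855), Irs1 (0.982) and Ugcg (0.9798), of which Irs1 was called higher and the others were not.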

How the data were processed

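The authors deposited raw read counts per gene for each library, on mouse build GRCm38. Tools listed per the submitters' processing notes are DESeq, DESeq2, Trimmomatic (0.36), Subread (1.5.2) with featureCounts, and STAR (2.5.2b); their roles, the annotation and the strand setting are not stated in the sources used here. From the counts, genes were filtered with edgeR's filterByExpr (minimum count 10, minimum total 15), which left 16616 genes and all 10 factors, scaled with TMM, and tested in R 4.3.3 with the quasi-likelihood F test of edgeR 4.0.16 (two-sided, group as the only term, Benjamini-Hochberg adjustment, threshold 0.05). Each standard error (SE) is the absolute log2 fold change over the root of its F statistic. Coordinates and exon lengths came from GENCODE mouse release M21 and promoters from RefSeq. The step was tested on simulated counts drawn independently for each library, without the likeness of Sox9-tg libraries 3 and 4.

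The factors and the lists were chosen with earlier results of these data known. Named were the 10 factors, Sox9, up to 4 genes with the smallest p in each list, overlapping genes and the 3 genes nearest each called factor in pattern; Mbp, Mog, Smad7, Pax6, Olig1, Olig2 and further list members named because they were called were named after their values were seen. Alternatives covered 3 other scalings, no filter, DESeq2 1.42.0, limma-voom 3.58.1, a replicate block, and leaving out each library in turn without the block. Summing Sox9-tg libraries 3 and 4 was added later.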

Additional observations from a re-analysis of the deposited data

Results flagged for a closer look

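Within the 4 Sox9-tg libraries, 4 values lay further from the rest of their group than Dixon's 95% limit of 0.829 allows, out of 65 groups tested; chance flags about 1 in 20 groups. Nkx6-1 was 0.515 CPM in Sox9-tg library 3, where the other 3 held 0.945 to 0.976 CPM. Itpr2, a calcium channel of premyelinating cells, was 502 CPM in Sox9-tg library 2, where the others held 212 to 236 CPM. Tcf7l1, a relative of TCF7L2, was 24.5 CPM in Sox9-tg library 1, where the others held 43.7 to 44.3 CPM. Zeb2os was 4.29 CPM in Sox9-tg library 4, where the others held 6.51 to 6.83 CPM.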

How the results depend on the processing

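Of 140 values for the 10 factors under the alternatives, 121 kept direction and side of the threshold, 12 lost the threshold, 4 gained it and 3 changed sign; the cause was not tested. Zeb2 did not pass with upper-quartile factors (log2 fold change 0.51, adjusted p = 0.0585), library totals (0.50, 0.0551) or no filter (0.57, 0.0529), and ranged from 0.42 to 0.67 with any library left out. Nkx2-2 ranged from 1.60 to 2.12 and Tcf7l2 from 0.59 to 1.10; Tcf7l2 passed in DESeq2 (0.77). Nkx6-2 ranged from -0.18 to 0.96, at -0.12 without control library 1, -0.18 without control library 3 and -0.12 without Sox9-tg library 2. With a library left out, the number of factors called higher ranged from 2 to 4, all genes called higher from 575 to 1785 and lower from 390 to 1384. Both counts fell by over 1.5 times without control library 1 (734 higher, 527 lower), control library 3 (575, 390), Sox9-tg library 3 (849, 493) or Sox9-tg library 4 (826, 530). Over the same settings, other lineage factors ranged from 3 to 8 higher and 2 to 5 lower, the Wnt list from 1 to 3 higher and 1 to 3 lower, the ZEB2 axis from 0 to 3 higher and 1 to 5 lower, and the ventral list from 1 to 2 higher. With Sox9-tg libraries 3 and 4 summed (chosen after seeing the data), Zeb2 was 0.59, and 843 genes were higher and 515 lower. Nkx6-1 ranged from 0.91 to 2.85 with a library left out. DESeq2 called 1709 genes higher and 1339 lower.

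That the replicate numbers of the titles pair the libraries was not established: deviations of same-numbered libraries from their group means correlated with r of 0.317, 0.613 and 0.07. Sox9-tg libraries 1 and 2 correlated best with the control library of their own number, and Sox9-tg library 3 about equally with control libraries 1 (0.086) and 3. With the replicate block, Tcf7l2 passed (log2 fold change 0.84, adjusted p = 0.00204), and 1600 genes were called higher and 1509 lower.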

Other observations

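Among non-coding genes within the spans of the factors, Ppnr, in an intron of Tcf7l2, held 68, 14, 1 and 2 counts in Sox9-tg libraries, against 0, 3 and 1 counts in control libraries, and Gm44883, within Zfp536, held 17, 1, 0 and 1 counts in Sox9-tg libraries, against 0, 1 and 0 counts in control libraries. The annotation classes sense-intronic and TEC made up 0.350% of the counts of Sox9-tg library 1, against 0.0961% to 0.144% in the other 6 libraries.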
